A study of Mus musculus with 10 samples.

Results

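The proteasome genes were described in splenic B cells of mice, measured by poly-A RNA sequencing in 5 libraries of mice with liver fibrosis and 5 libraries of control mice. Members were the protein-coding genes of the count table whose symbol starts with Psma to Psmg followed by a digit, which gave 50 of 54532 genes. The fibrosis mice had received carbon tetrachloride, a solvent that injures hepatocytes, by intraperitoneal injection for 4 weeks. The control mice are labelled wildtype. The strain, age and sex of either group, and any vehicle given to the controls, are not stated in the labels. Nothing in the labels says whether each library is a separate animal, and p-values therefore cover only the spread among these 10 libraries, part of which may be technical.

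The proteasome is the barrel-shaped protease that degrades ubiquitin-tagged proteins in the cytosol and nucleus. Its 20S core is built from alpha rings (Psma genes), which gate the barrel, around beta rings (Psmb genes), which hold the proteolytic sites. The 19S regulatory particle (Psmc and Psmd genes) binds the core, takes up ubiquitinated proteins, unfolds them with its ATPases and removes the ubiquitin. In lymphocytes and under interferon gamma, the catalytic beta subunits Psmb5, Psmb6 and Psmb7 are replaced by Psmb8, Psmb9 and Psmb10 to form the immunoproteasome, which supplies peptides for MHC class I.

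In fibrosis the calls among the proteasome genes went in both directions, by role. Of the 3 immunoproteasome catalytic genes, Psmb8 and Psmb9 were higher. The 20 Psmc and Psmd genes encode the 19S particle and some of its assembly chaperones. Of these 20, 13 (65.0%) were lower, against 17.2% of all genes tested. No gene of the constitutive 20S core was called in either direction. Among the regulators, the activator genes Psme1 and Psme2b were higher. The activator gene Psme3, the inhibitor gene Psmf1 and 3 of 4 (75%) assembly chaperone genes of the 20S core were lower. Calls are from edgeR's quasi-likelihood test with Benjamini-Hochberg adjustment over all 14283 genes tested, at an adjusted p under 0.05, and fold changes are log2, fibrosis minus control. Levels are in CPM, which are counts scaled by the TMM library size.

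In all, 49 of the 50 members passed the filter on low counts and were tested. Of these, 4 (8.16%) were higher and 19 (38.8%) were lower, against 18.6% higher and 17.2% lower among all genes tested, where 35.7% were called in either direction. At an unadjusted p under 0.05 there were 26. The lower calls include Psmc3ip, which shares the name pattern but encodes a homologous recombination factor and no proteasome subunit. All 5 fibrosis libraries lay above all 5 controls for 2 of the 49 tested members, against 11.4% of all genes tested (1634 of 14283). They lay below all controls for 15 of the 49, Psmc3ip among them, against 14.0% of all genes tested (1996 of 14283). The median log2 fold change was -0.15 over the tested members and 0.05 over all genes tested. The summed level of all members was 4770 to 6501 CPM in the fibrosis libraries and 5316 to 6061 CPM in the controls, so the sums overlap. The one member not tested was Psmb11, the thymus-specific beta subunit, which was listed with 0 counts over the fibrosis libraries and 4 over the controls.

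**Figure D1:**
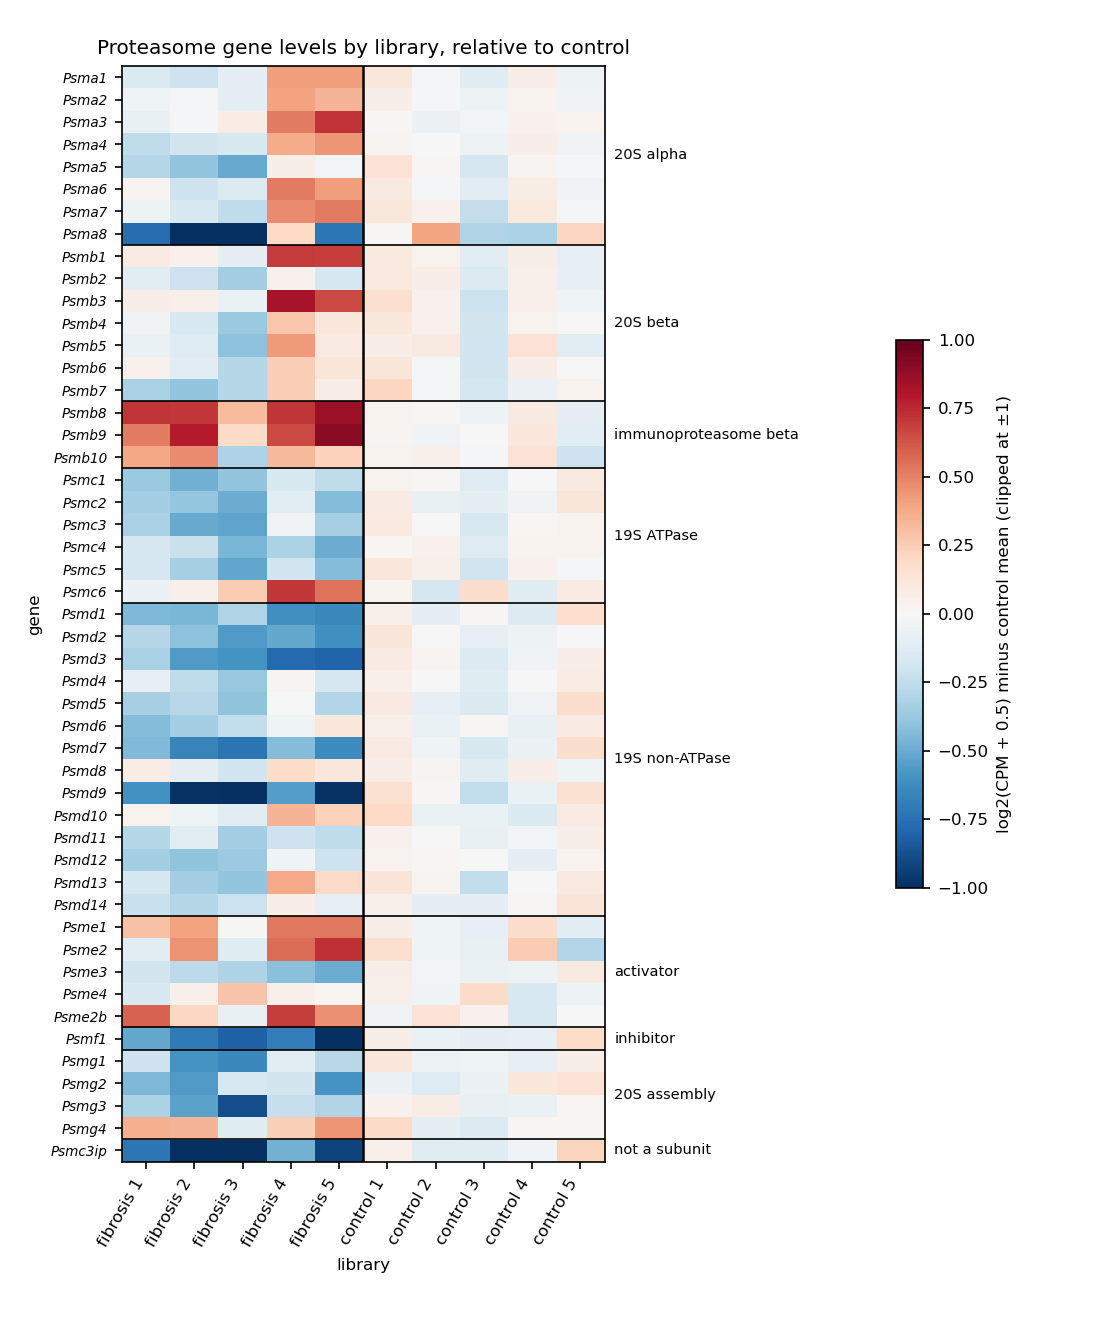
Level of each tested proteasome gene (rows, by role) in each library (columns, fibrosis then control), as log2(CPM + 0.5) minus the control mean, with the colour scale clipped at ±1. Psmb8 and Psmb9 are above the control mean in all 5 fibrosis libraries, most 19S genes are below it, and each 20S gene has its highest fibrosis value in fibrosis 4 or 5.

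Libraries held 13439100 to 17954551 counts. Replicates correlated at 0.970 to 0.990 within fibrosis and 0.990 to 0.994 within control (Pearson's r across genes, on log2 CPM; genes are not independent), and the closest pair of libraries differed by a chi-square of 5.81 per degree of freedom. B cell markers such as Cd79a and Ms4a1 summed to 5929 to 8397 CPM in fibrosis and 5561 to 6360 CPM in control, and 4 of 8 were called higher. Markers of several other cells moved as well, where 18.6% of all genes tested were higher and 17.2% lower. All 10 proliferation markers were lower (summed level 894 to 1381 CPM in fibrosis, 2380 to 3100 CPM in control), and 5 of 10 erythroid markers were lower (830.9 to 7435 CPM in fibrosis, 3281 to 5506 CPM in control). All 7 tested platelet markers were higher (249 to 1106 CPM in fibrosis, 140.1 to 175.9 CPM in control; Gp1bb, the other marker, was at most 0.0606 CPM). Of 8 dendritic cell markers 5 were higher (287 to 358 CPM in fibrosis, 171 to 191 CPM in control). Of the NK cell markers 4 of 8 were higher (81.5 to 170.3 CPM in fibrosis, 69.5 to 121 CPM in control). T cell markers were higher for 2 of 8 (25%), with 35.4 to 102 CPM in fibrosis and 36.3 to 49.7 CPM in control. Of 7 tested plasma cell markers 1 was higher and 1 lower (14.3% each), which is below the shares of all genes. Of 8 macrophage and 8 neutrophil markers edgeR called none (0; 2 at an unadjusted p under 0.05, both neutrophil). Fibrosis 4 and 5 differed from fibrosis 1 to 3, with 2954 and 3115 CPM of macrophage markers against 859.6 to 1055 CPM in those 3, and 3466 and 4415 CPM of neutrophil markers against 356 to 1369 CPM. In bulk RNA, fewer cells of a type and less RNA per cell cannot be told apart.

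Psmb8 (LMP7) encodes the immunoproteasome subunit that takes the place of Psmb5 at the chymotrypsin-like site. It lies in the MHC class II region (chromosome 17, 34197721 to 34201454, plus strand, GRCm38). Its level was 360.3, 359, 274, 362 and 398 CPM in fibrosis 1 to 5, against 225, 222, 212, 235 and 207 CPM in control 1 to 5. All 5 fibrosis libraries were above all 5 controls, with fibrosis 3 the lowest of them. The log2 fold change was 0.67 ± 0.10 (SE; adjusted p = 0.000259), with means of 351 ± 45.8 CPM in fibrosis and 220.0 ± 11.03 in control (SD, n = 5 each).

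Psmb9 (LMP2) replaces Psmb6 and lies near Psmb8, with the peptide transporter gene Tap1 between them (chromosome 17, 34181988 to 34187764, minus strand). Its level was 219, 265, 175, 243 and 288 CPM in fibrosis 1 to 5, against 157, 150.2, 153, 166 and 143 CPM in control 1 to 5. The groups did not overlap, and fibrosis 3 was again the lowest of the fibrosis libraries. On the log2 scale it was higher by 0.63 ± 0.12 (SE; adjusted p = 0.0013), with means of 238 ± 43.5 CPM in fibrosis and 154 ± 8.33 in control (SD, n = 5 each).

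Psmb10 (MECL-1), which replaces Psmb7, lies outside the MHC (chromosome 8, 105935735 to 105938444, minus strand). Its level was 218, 232, 135, 209 and 195 CPM in fibrosis 1 to 5, against 171, 173, 164, 184 and 145 CPM in control 1 to 5. Fibrosis 3 was below every control, and the other 4 fibrosis libraries were above every control. The difference of 0.24 ± 0.13 (SE; adjusted p = 0.167) did not pass the test. Without fibrosis 3 it was 0.34 with an adjusted p of 0.0212 by edgeR, so this library decides the call.

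None of the 3 constitutive catalytic genes was called by edgeR (0 at an unadjusted p under 0.05, and 0 by DESeq2). Psmb5 had 101, 96.6, 79.6, 142 and 112 CPM in fibrosis 1 to 5, against 111, 113, 92.4, 117 and 98.01 CPM in control 1 to 5. Its controls lie inside the fibrosis range, which runs from fibrosis 3 to fibrosis 4, and its log2 fold change was -0.001 ± 0.13 (SE; adjusted p = 0.997). Psmb6 had 123, 110.4, 98.1, 142 and 130.4 CPM in fibrosis 1 to 5, against 130.1, 119, 106, 125 and 119.9 CPM in control 1 to 5, and the groups overlap (log2 fold change 0.01 ± 0.10 SE, adjusted p = 0.953). Psmb7 had 63.6, 60.6, 65.3, 94.7 and 83.8 CPM in fibrosis 1 to 5, against 93.1, 78.97, 70.5, 76.9 and 81.7 CPM in control 1 to 5. Fibrosis 1 to 3 lay below every control for Psmb7, whereas fibrosis 4 was the highest library, and the log2 fold change was -0.13 ± 0.13 (SE; adjusted p = 0.476). Without fibrosis 4 and 5 Psmb7 was lower, at -0.34 (adjusted p = 0.0114 by edgeR).

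**Figure D2:**
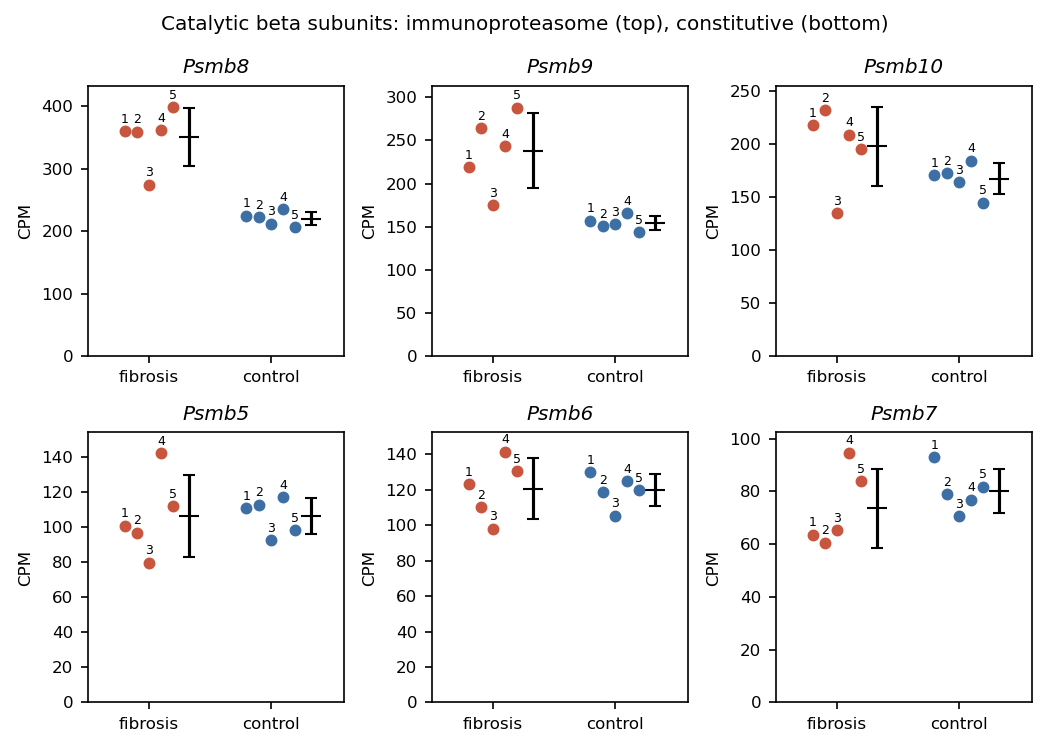
Level in CPM of the immunoproteasome genes (top row) and the constitutive genes they replace (bottom row); points are libraries, numbered by replicate, and bars are mean ± SD of 5 libraries. Psmb8 and Psmb9 separate the groups, while Psmb10, Psmb5, Psmb6 and Psmb7 overlap.

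Within a library, the ratio of counts of an immunoproteasome gene to its constitutive counterpart does not depend on how libraries are scaled. It was tested by an exact two-sided permutation test of the mean log2 ratio over all assignments of the libraries to the groups, whose smallest possible p is 0.00794, adjusted over 4 ratios. The Psmb8 to Psmb5 count ratio was 3.58, 3.72, 3.45, 2.55 and 3.56 in fibrosis 1 to 5, against 2.03, 1.97, 2.29, 2.01 and 2.11 in control 1 to 5. The groups were apart, and the log2 ratio was higher in fibrosis by 0.68 (exact p = 0.00794, adjusted p = 0.0106).

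The Psmb9 to Psmb6 count ratio was 1.78, 2.40, 1.79, 1.72 and 2.21 in fibrosis 1 to 5, against 1.21, 1.26, 1.45, 1.33 and 1.195 in control 1 to 5. These groups were apart too, with a log2 difference of 0.61 (exact p = 0.00794, adjusted p = 0.0106). The Psmb10 to Psmb7 count ratio was 3.42, 3.83, 2.06, 2.21 and 2.33 in fibrosis 1 to 5, against 1.84, 2.18, 2.33, 2.40 and 1.77 in control 1 to 5. Only fibrosis 1 and 2 exceeded the controls, and the log2 difference of 0.36 did not pass (exact p = adjusted p = 0.127). The record of Nek6 overlaps that of Psmb7 by 6571 bases on the opposite strand, and reads in the overlap cannot be told apart. Nek6 was listed with 1373 counts in fibrosis and 916 in control, against 5598 and 7171 counts for Psmb7.

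**Figure D3:**
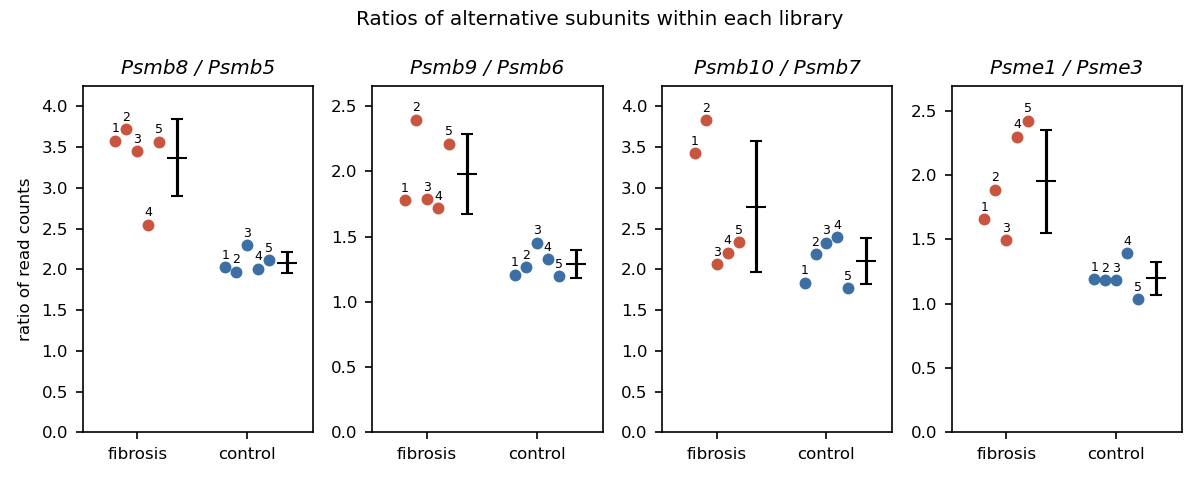
Ratio of read counts of alternative subunits in each library; points are libraries, numbered by replicate, and bars are mean ± SD of 5 libraries. The groups are apart for Psmb8 to Psmb5, Psmb9 to Psmb6 and Psme1 to Psme3 and overlap for Psmb10 to Psmb7.

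Set per length, as CPM per kilobase of the principal transcript, Psmb8 was 215 ± 28.1 in fibrosis and 135 ± 6.78 in control, and Psmb5 was 118 ± 25.7 in fibrosis and 118 ± 11.6 in control (SD, n = 5 each). Psmb8 thus made up 64.8% ± 3.58 of the Psmb8 and Psmb5 sum in fibrosis and 53.4% ± 1.49 in control. Psmb9 made up 53.6% ± 3.72 of its pair with Psmb6 in fibrosis and 43.2% ± 1.96 in control, and Psmb10 made up 70.1% ± 5.70 of its pair with Psmb7 in fibrosis and 64.8% ± 3.17 in control. These shares depend on the length that is used: with the deposited FPKM, whose gene lengths count every annotated exon, Psmb8 was at 52.3% in fibrosis and 40.6% in control, Psmb9 at 50.1% in fibrosis and 39.7% in control, and Psmb10 at 84.1% in fibrosis and 80.7% in control.

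Promoters are shown for the genes of the 4 tested ratios other than Psmb7 and for Psmd9, the Psmd gene with the largest decrease. RefSeq windows (GRCm38.p6; 250 bases before and 50 after the start of a transcript, 5′ to 3′ along the gene) matched 42 of the 50 members, with 45 windows. They were searched on both strands for the core of an interferon-stimulated response element (GAAA, any 2 bases, GAAA), a gamma-activated site (TTCNNNGAA), an antioxidant response element of the kind bound by the NFE2 family (TGACNNNGC) and the CCAAT box (CCAAT). Capitals mark matches.

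Psmb8 (chr17:34197945-34198244, plus strand): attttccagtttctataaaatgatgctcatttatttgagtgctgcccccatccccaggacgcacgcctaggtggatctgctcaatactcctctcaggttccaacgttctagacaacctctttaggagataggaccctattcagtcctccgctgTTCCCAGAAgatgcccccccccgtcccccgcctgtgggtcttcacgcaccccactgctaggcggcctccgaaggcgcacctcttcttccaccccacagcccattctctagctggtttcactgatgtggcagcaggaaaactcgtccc

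Psmb5 (chr14:54617946-54618245, minus strand): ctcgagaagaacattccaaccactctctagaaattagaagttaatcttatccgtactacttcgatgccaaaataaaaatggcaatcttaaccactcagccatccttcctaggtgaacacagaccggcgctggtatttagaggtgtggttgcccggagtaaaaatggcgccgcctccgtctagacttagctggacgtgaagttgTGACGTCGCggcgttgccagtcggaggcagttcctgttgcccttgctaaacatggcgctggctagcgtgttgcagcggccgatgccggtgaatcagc

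Psmb9 (chr17:34187281-34187580, minus strand): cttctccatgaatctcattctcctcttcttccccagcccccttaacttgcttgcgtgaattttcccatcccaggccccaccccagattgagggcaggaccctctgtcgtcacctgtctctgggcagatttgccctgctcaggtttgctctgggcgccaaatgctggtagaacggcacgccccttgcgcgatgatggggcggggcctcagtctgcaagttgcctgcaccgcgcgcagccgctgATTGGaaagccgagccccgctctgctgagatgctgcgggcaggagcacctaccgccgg

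Psmb6 (chr11:70525107-70525406, plus strand): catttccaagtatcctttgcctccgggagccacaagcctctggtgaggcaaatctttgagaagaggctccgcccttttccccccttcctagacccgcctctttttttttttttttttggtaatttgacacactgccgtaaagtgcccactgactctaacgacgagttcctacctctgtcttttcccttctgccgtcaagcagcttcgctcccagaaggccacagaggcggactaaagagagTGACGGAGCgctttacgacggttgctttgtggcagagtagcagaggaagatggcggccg

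Psmb10 (chr8:105938343-105938642, minus strand): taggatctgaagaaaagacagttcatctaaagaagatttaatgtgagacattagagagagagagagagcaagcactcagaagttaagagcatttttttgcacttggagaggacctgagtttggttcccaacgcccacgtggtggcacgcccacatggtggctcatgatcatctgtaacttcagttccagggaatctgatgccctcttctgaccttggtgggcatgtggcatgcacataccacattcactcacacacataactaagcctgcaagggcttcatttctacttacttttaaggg

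Psme1 (chr14:55578244-55578543, plus strand): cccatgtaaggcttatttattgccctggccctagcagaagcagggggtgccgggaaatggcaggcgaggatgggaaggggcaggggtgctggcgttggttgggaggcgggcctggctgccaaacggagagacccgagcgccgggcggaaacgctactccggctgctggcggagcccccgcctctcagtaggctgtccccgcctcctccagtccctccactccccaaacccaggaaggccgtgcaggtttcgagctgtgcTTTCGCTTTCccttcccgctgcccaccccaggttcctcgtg

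Psme3 (chr11:101315963-101316262, plus strand): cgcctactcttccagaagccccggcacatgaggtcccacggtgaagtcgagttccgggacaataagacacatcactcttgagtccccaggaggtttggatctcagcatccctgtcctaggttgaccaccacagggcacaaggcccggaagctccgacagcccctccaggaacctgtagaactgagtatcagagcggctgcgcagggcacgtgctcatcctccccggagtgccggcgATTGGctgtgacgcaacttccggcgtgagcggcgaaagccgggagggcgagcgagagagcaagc

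Psmd9 (chr5:123227940-123228239, plus strand): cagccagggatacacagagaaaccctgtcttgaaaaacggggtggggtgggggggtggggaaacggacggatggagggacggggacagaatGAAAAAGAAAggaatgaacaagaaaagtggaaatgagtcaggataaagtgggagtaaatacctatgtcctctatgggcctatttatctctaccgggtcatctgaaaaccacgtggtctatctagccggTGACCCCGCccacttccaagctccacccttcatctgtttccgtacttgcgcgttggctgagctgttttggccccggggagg

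The Psmb8 window holds 1 gamma-activated site, 97 bases before the start that RefSeq gives, which lies downstream of the gene start in the count table. The RefSeq starts of Psmb5, Psmb9, Psmb10, Psme1 and Psmd9 also lie downstream of their gene starts in that table. For Psmd9 the window begins at 123227940 and the gene record at 123169413. The Psmb9 window holds a CCAAT box on the opposite strand. Psmb9 and Tap1, the peptide transporter gene, are transcribed away from each other from starts 226 bases apart, so their windows share 275 bases (34187306 to 34187580 on chromosome 17). Their gene records overlap by 212 bases on opposite strands, with 36598 Tap1 counts in fibrosis and 35470 in control, and reads in the overlap cannot be told apart. The Psmb10 window holds no match to these letters. The Psmb5 and Psmb6 windows each hold an antioxidant response element, and the Psme1 window holds an interferon-stimulated element 9 bases after its start. The Psmd9 window holds both of these elements.

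Over all members, the interferon-stimulated core was found in 5 of 45 windows (11.1%), against 3.44% of 32851 mouse promoter windows of the same length. The gamma-activated site was in 3 member windows (6.67%, against 8.30% of all windows), the antioxidant element in 6 (13.3%, against 12.4%) and the CCAAT box in 15 (33.3%, against 37.4%). The 5 windows with the interferon-stimulated core belong to Psme1, which was called higher, to Psmd9, which was called lower, and to Psmb3, Psmd4 and Psmg4, which were not called. A match of letters is a description and not a binding site.

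The alpha genes of the core were not called (0 of 8), nor were the constitutive beta genes (0 of 7). By edgeR, 1 of these 15 genes had an unadjusted p under 0.05. DESeq2 called 0, limma voom with quality weights called 3 lower, and limma on log2(FPKM + 1) called 1 lower. The median log2 fold change was 0.12 for the alpha genes and -0.001 for the constitutive beta genes. Psma1, Psma2, Psma3, Psma4, Psma6 and Psma7 lay between 0.08 and 0.28, and Psmb2 (-0.16), Psmb4 (-0.02) and Psmb7 (-0.13) were on the other side of 0.

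Psma8 encodes the alpha subunit of the testis proteasome and was near the limit of detection. Its level was 0.367, 0.185, 0.180, 1.19 and 0.390 CPM in fibrosis 1 to 5, against 0.984, 1.43, 0.691, 0.679 and 1.21 CPM in control 1 to 5. Fibrosis 4 overlapped the controls and the other 4 fibrosis libraries were below them, with 33 counts in all of fibrosis and 89 in all of control. The log2 fold change of -1.17 ± 0.47 (SE; adjusted p = 0.0667) did not pass the test, and without fibrosis 4 it was -1.81 (adjusted p = 0.00372).

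Psma5, the alpha subunit with the smallest p after Psma8, had 79.4, 73.6, 68.1, 101 and 94.8 CPM in fibrosis 1 to 5, against 107, 97.9, 86.3, 98.5 and 95.8 CPM in control 1 to 5. Fibrosis 1 to 3 were below every control and fibrosis 4 and 5 were within the controls (log2 fold change -0.22 ± 0.11 SE, adjusted p = 0.139). Without fibrosis 4 it was lower (-0.30, adjusted p = 0.04 by edgeR). Psmb3, a structural beta subunit, had 178, 175, 162, 300.3 and 268 CPM in fibrosis 1 to 5, against 189, 175, 146, 176 and 164 CPM in control 1 to 5. Here fibrosis 4 and 5 were above every control, and fibrosis 1 to 3 lay among the controls (log2 fold change 0.35 ± 0.17 SE, adjusted p = 0.118). Psmb1, another structural beta subunit, had 213, 208, 188, 327 and 326 CPM in fibrosis 1 to 5, against 216, 207, 186, 210.0 and 191 CPM in control 1 to 5, with the same split between fibrosis 4 and 5 and the rest (log2 fold change 0.32 ± 0.15 SE, adjusted p = 0.119). Without fibrosis 3 Psmb1 was higher (0.39, adjusted p = 0.0452 by edgeR).

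Each of the 15 tested core genes had its highest fibrosis value in fibrosis 4 or 5. As a median of log2(CPM + 0.5) minus the control mean, the alpha genes were at -0.11, -0.19, -0.15, 0.41 and 0.42 in fibrosis 1 to 5, against -0.11 to 0.07 in the controls. Leaving out both libraries, a fit chosen after the data were seen, turned the median of the alpha genes to -0.15. It called 4 of the 15 core genes lower by edgeR (Psma4, Psma5, Psma8 and Psmb7), against 2743 of all 14607 genes tested there. Fibrosis 4 and 5 are also the 2 libraries with the highest summed macrophage, neutrophil, platelet, T cell, NK cell and dendritic cell markers. Platelet markers summed to 1050 and 1106 CPM in fibrosis 4 and 5 and to 249 to 619 CPM in fibrosis 1 to 3, and T cell markers to 102 and 98.2 CPM in fibrosis 4 and 5 and to 35.4 to 65.5 CPM in fibrosis 1 to 3. B cell markers were the lowest of the fibrosis group there, at 5929 and 6164 CPM, against 7809 to 8397 CPM in fibrosis 1 to 3. The part of these cells in the core levels was not tested.

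**Figure D4:**
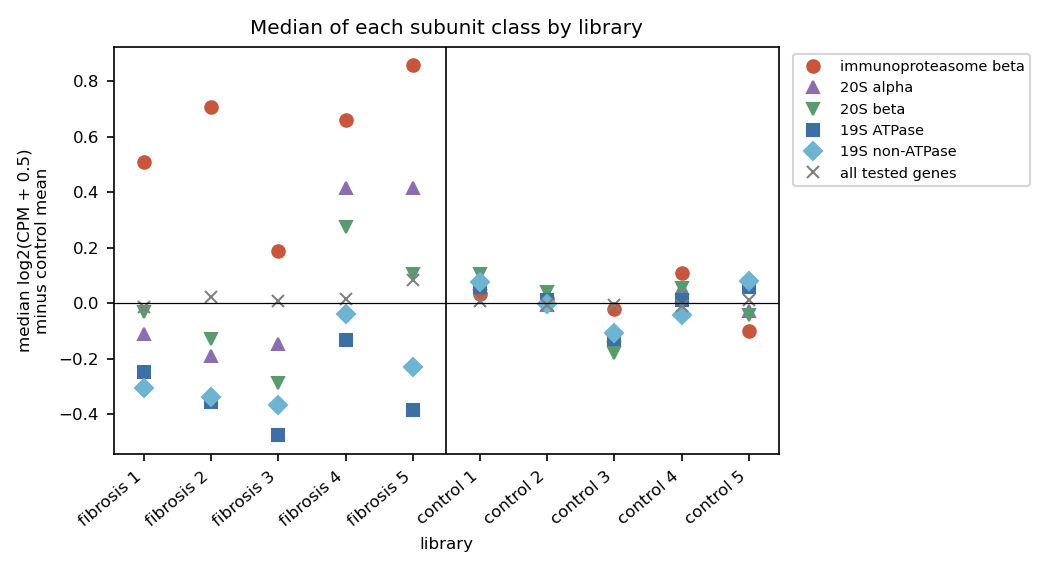
Median over the genes of each class, as log2(CPM + 0.5) minus the control mean, in each library (fibrosis left, control right); crosses are the median over all tested genes. The alpha genes of the core lie at 0.41 and 0.42 in fibrosis 4 and 5 and below 0 in fibrosis 1 to 3, while the immunoproteasome genes are above 0 and the 19S classes below 0 in all 5 fibrosis libraries.

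Of the 20 Psmc and Psmd genes 13 (65.0%) were lower, against 17.2% of all genes, and 7 were not called. The 20 include the assembly chaperones Psmd5, Psmd9 and Psmd10 beside the subunits of the particle. At an unadjusted p under 0.05 there were 14, and for 9 of the 20 all fibrosis libraries were below all controls, against 14.0% of all genes. The median log2 fold change was -0.30. The class medians of the ATPases (-0.48 to -0.13) and of the Psmd genes (-0.37 to -0.04) were below 0 in each of the 5 fibrosis libraries. Without fibrosis 4 and 5, in the fit chosen after the data were seen, 16 of 20 were lower, against 2743 of all 14607 genes tested there.

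The 6 Psmc genes encode the ATPases that form the ring on the core and unfold the substrate. Of these, 5 (83.3%, against 17.2% of all genes) were lower by nearly the same amount: Psmc1 -0.33, Psmc2 -0.35, Psmc3 -0.34, Psmc4 -0.33 and Psmc5 -0.33 on the log2 scale. Psmc2 had 92.2, 89.4, 82.8, 108 and 86.3 CPM in fibrosis 1 to 5, against 123, 111, 109.6, 114 and 127 CPM in control 1 to 5. All fibrosis libraries were below all controls, with fibrosis 4 the closest to them (log2 fold change -0.35 ± 0.09 SE, adjusted p = 0.00719). Psmc1 had 104, 96.2, 102, 121 and 113 CPM in fibrosis 1 to 5, against 138, 136, 123, 135 and 143 CPM in control 1 to 5, also without overlap (log2 fold change -0.33 ± 0.08 SE, adjusted p = 0.00767). Psmc4 did not overlap between groups either, and for Psmc3 and Psmc5 the highest fibrosis library passed the lowest control.

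Psmc6 was the exception among the ATPases, with 41.4, 44.6, 51.6, 70.7 and 62.98 CPM in fibrosis 1 to 5, against 44.2, 38.4, 48.7, 39.5 and 45.6 CPM in control 1 to 5. Fibrosis 3, 4 and 5 were above every control and fibrosis 1 and 2 lay among them. Its log2 fold change of 0.32 ± 0.14 (SE; adjusted p = 0.0879) did not pass the test. Without fibrosis 1 it was 0.41 (adjusted p = 0.0287 by edgeR). Psmc3 was not called without control 1 (-0.32, adjusted p = 0.0521), and it overlaps Slc39a13 on the opposite strand, which was listed with 1785 counts in fibrosis and 1657 in control, against 12302 and 18167 counts for Psmc3.

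The Psmd genes encode other subunits of the particle, among them the scaffold and ubiquitin receptor subunits, and chaperones of its assembly. Of 14, 8 (57.1%) were lower, against 17.2% of all genes, and 6 (Psmd4, Psmd6, Psmd8, Psmd10, Psmd13 and Psmd14) were not called. Psmd9 encodes a chaperone of 19S assembly that is not part of the finished particle (chromosome 5, 123169413 to 123250131, plus strand). Its level was 47.5, 36.3, 36.01, 49.4 and 36.2 CPM in fibrosis 1 to 5, against 80.4, 72.97, 61.1, 69.2 and 80.4 CPM in control 1 to 5. The groups did not overlap, with a log2 fold change of -0.83 ± 0.12 (SE; adjusted p = 0.000204), with means of 41.1 ± 6.77 CPM in fibrosis and 72.8 ± 8.15 in control (SD, n = 5 each).

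Psmd7, the partner of the deubiquitinase in the lid, had 83.8, 71.9, 68.9, 84.3 and 73.1 CPM in fibrosis 1 to 5, against 121, 111, 103, 109.6 and 129 CPM in control 1 to 5. Every fibrosis library was below every control (log2 fold change -0.59 ± 0.09 SE, adjusted p = 0.000351). Psmd3, a lid subunit, was lower by a like amount (log2 fold change -0.61 ± 0.10 SE, adjusted p = 0.000512), as were the large scaffold subunits Psmd1 (log2 fold change -0.49 ± 0.09 SE, adjusted p = 0.00105) and Psmd2 (log2 fold change -0.47 ± 0.09 SE, adjusted p = 0.000976), none of which overlapped between groups.

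Smaller decreases passed the test for Psmd5 (-0.26, adjusted p = 0.0464), another assembly chaperone, and for Psmd11 (-0.24, adjusted p = 0.021) and Psmd12 (-0.27, adjusted p = 0.0264), both lid subunits. Single libraries decided these 3 calls: without control 1 the adjusted p by edgeR was 0.106 for Psmd5, 0.0545 for Psmd11 and 0.0595 for Psmd12. Without control 5 it was 0.120 for Psmd5, 0.053 for Psmd11 and 0.0575 for Psmd12. Without control 2 it was 0.0592 for Psmd5 and 0.0568 for Psmd12, and without fibrosis 2 it was 0.078 for Psmd5 and 0.0624 for Psmd12. Psmd5 was not called without fibrosis 1, 3 or 5 or control 4 either (adjusted p 0.0685 to 0.0818). Psmd14, the deubiquitinase of the lid, had a log2 fold change of -0.15 ± 0.09 (SE; adjusted p = 0.209), and the ubiquitin receptor Psmd4 one of -0.17 ± 0.09 (SE; adjusted p = 0.163). Psmd6 was at -0.18, Psmd13 at -0.04, Psmd8 at 0.02 and Psmd10 (gankyrin, an assembly chaperone) at 0.10. Without fibrosis 5 Psmd6 was lower (-0.26, adjusted p = 0.0475 by edgeR), and without both fibrosis 4 and 5 Psmd6, Psmd13 and Psmd14 were lower. All 10 proliferation markers were lower in the same libraries, and their part in the lower 19S levels was not tested.

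**Figure D5:**
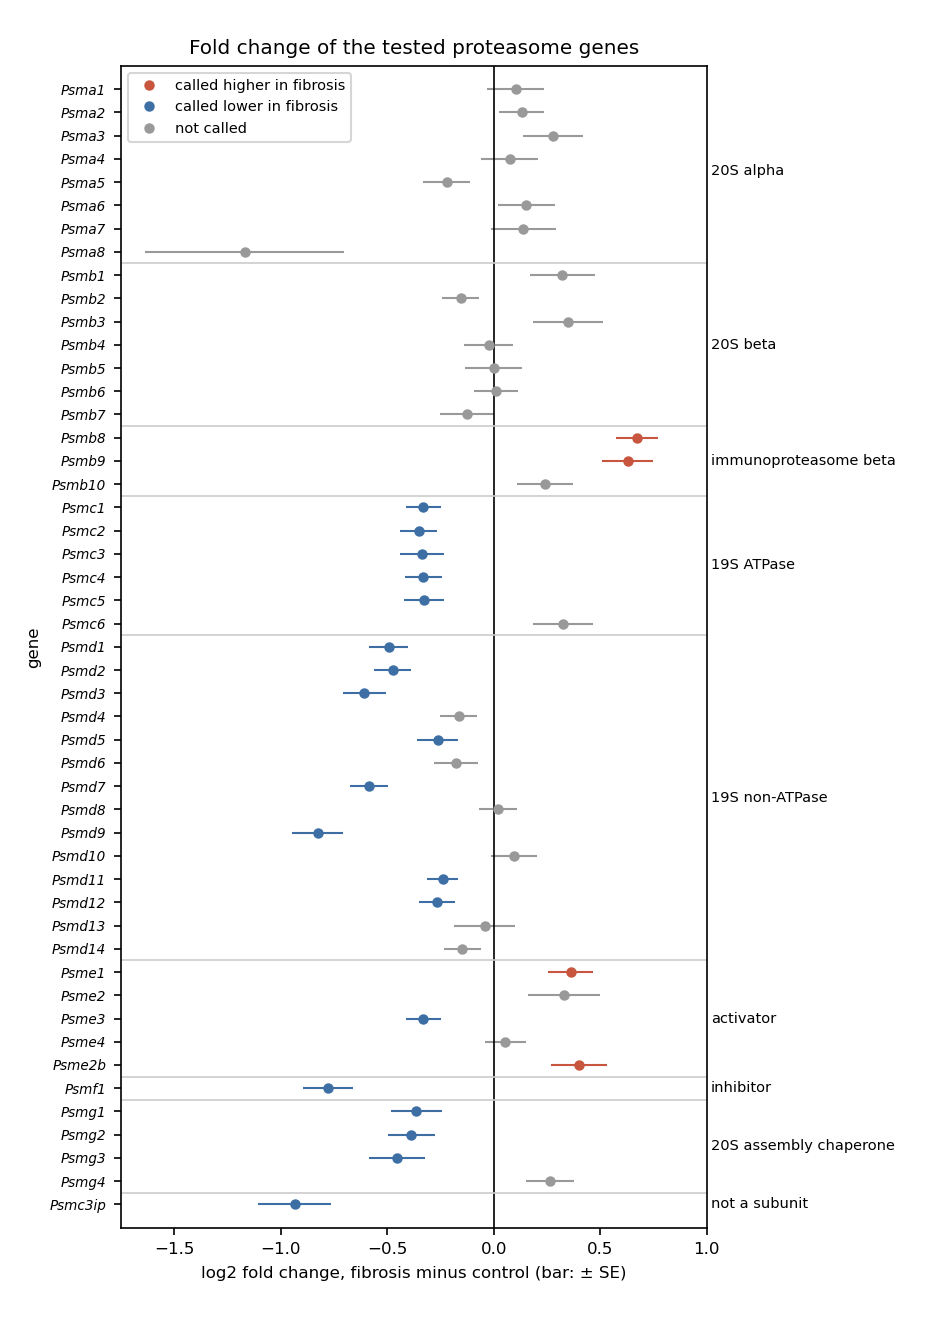
Log2 fold change, fibrosis minus control, of each tested proteasome gene by role, with bars of ± 1 SE from edgeR; colours give the calls at an adjusted p under 0.05. Psmb8 and Psmb9 stand at 0.67 and 0.63, 5 of 6 ATPase genes lie near -0.33, and Psmd9 and Psmf1 have the largest called decreases among the proteasome genes.

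Alternative caps open the core without ATP. Psme1 and Psme2 encode the ring (PA28 alpha and beta) that is induced by interferon gamma, Psme3 encodes the nuclear PA28 gamma ring, and Psme4 encodes the single-chain activator PA200. Psme1 (chromosome 14, 55578123 to 55581529, plus strand) had 313, 338, 259, 368 and 369 CPM in fibrosis 1 to 5, against 266, 249, 242, 289 and 236 CPM in control 1 to 5. Fibrosis 3 lay inside the control range and the other 4 were above it. The log2 fold change was 0.36 ± 0.11 (SE; adjusted p = 0.019), with means of 329 ± 45.9 CPM in fibrosis and 257 ± 21.2 in control (SD, n = 5 each).

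Psme2 lies a few kilobases from Psme1 and had 83.6, 124, 83.2, 134 and 151 CPM in fibrosis 1 to 5, against 101, 88.2, 86.1, 108 and 73.7 CPM in control 1 to 5. Fibrosis 2, 4 and 5 were above every control and fibrosis 1 and 3 were among them. The log2 fold change of 0.33 ± 0.17 (SE; adjusted p = 0.148) did not pass. Psme2b, an intronless copy of Psme2 on chromosome 11, had 95.2, 72.7, 59.8, 102 and 86.9 CPM in fibrosis 1 to 5, against 61.7, 69.9, 65.04, 56.2 and 63.2 CPM in control 1 to 5. Fibrosis 3 lay among the controls and the other 4 fibrosis libraries were above them. Psme2b was called higher, at 0.40 ± 0.13 (SE; adjusted p = 0.0298). The Psme2b record overlaps Gm12185 by 837 bases and 9930111J21Rik1 by 41 bases, both on the same strand. Gm12185 was listed with 107 counts in fibrosis and 95 in control, and 9930111J21Rik1 with 1478 and 1410, against 6364 and 5659 for Psme2b. Reads of Psme2 and Psme2b may also be shared between these near-identical copies, so the call of Psme2b is uncertain. It was also lost on leaving out fibrosis 1, 4 or 5, or control 1, 4 or 5, in turn, with an adjusted p of 0.0553 to 0.0759 by edgeR.

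Psme3 had 189, 179, 173, 160.2 and 152 CPM in fibrosis 1 to 5, against 223, 211, 205, 207 and 228 CPM in control 1 to 5. All fibrosis libraries were below all controls, and the log2 fold change was -0.33 ± 0.08 (SE; adjusted p = 0.00715). Psme4 had 55.4, 63.9, 75.1, 63.9 and 62.5 CPM in fibrosis 1 to 5, against 63.9, 59.98, 70.2, 55.2 and 59.6 CPM in control 1 to 5, and the groups overlap (log2 fold change 0.05 ± 0.10 SE, adjusted p = 0.693). The Psme1 to Psme3 count ratio was 1.66, 1.89, 1.49, 2.30 and 2.42 in fibrosis 1 to 5, against 1.19, 1.18, 1.18, 1.39 and 1.04 in control 1 to 5. The groups were apart, with a log2 difference of 0.69 (exact two-sided permutation p = 0.00794, the smallest possible; adjusted p = 0.0106).

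Psme1 was not called without control 5 (0.33, adjusted p = 0.0564 by edgeR). Psme1 and Psme2b did not hold as calls without fibrosis 4 and 5, at 0.25 for Psme1 (adjusted p = 0.0657) and 0.27 for Psme2b (adjusted p = 0.120), by edgeR. Psmb8 and Psmb9 were then the members called higher. The Psme1 to Psme3 difference was 0.49 in that fit (exact permutation adjusted p = 0.0476).

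Psmf1 encodes PI31, an inhibitor of the isolated core that also helps to move proteasomes in cells. Its level was 68.4, 59.6, 55.5, 60.3 and 42.2 CPM in fibrosis 1 to 5, against 102, 93.4, 91.3, 92.4 and 111 CPM in control 1 to 5. No fibrosis library reached the lowest control, and fibrosis 5 was the lowest. This gave a log2 fold change of -0.78 ± 0.12 (SE; adjusted p = 0.000278), with means of 57.2 ± 9.62 CPM in fibrosis and 97.95 ± 8.38 in control (SD, n = 5 each).

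The Psmg genes encode the chaperones that assemble the alpha ring. Psmg2 had 23.9, 22.1, 29.4, 28.9 and 21.6 CPM in fibrosis 1 to 5, against 31.5, 29.9, 31.5, 35.2 and 36.2 CPM in control 1 to 5. The groups did not overlap, although fibrosis 3 and 4 came close to the lowest control (log2 fold change -0.39 ± 0.11 SE, adjusted p = 0.0146). Psmg3 had 12.5, 10.7, 8.26, 13.3 and 12.6 CPM in fibrosis 1 to 5, against 16.2, 16.6, 14.9, 14.99 and 15.9 CPM in control 1 to 5, also without overlap (log2 fold change -0.46 ± 0.13 SE, adjusted p = 0.016). Psmg1, the partner of Psmg2, was lower as well (log2 fold change -0.36 ± 0.12 SE, adjusted p = 0.0291), and Psmg4, the partner of Psmg3, had a log2 fold change of 0.26 ± 0.11 (SE; adjusted p = 0.0858) and was not called. Without fibrosis 3 Psmg4 was higher (0.33, adjusted p = 0.0144 by edgeR), and Psmg1 was not called without fibrosis 2, control 1 or control 5 (adjusted p 0.0638 to 0.0727).

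Psmc3ip, the homologous recombination factor, had 8.25, 4.74, 6.76, 9.91 and 7.09 CPM in fibrosis 1 to 5, against 14.4, 12.8, 12.8, 13.6 and 16.4 CPM in control 1 to 5. The groups did not overlap (log2 fold change -0.93 ± 0.17 SE, adjusted p = 0.00107). It overlaps Mlx on the opposite strand, which was listed with 2631 counts in fibrosis and 3448 in control, more than the 559 and 1249 counts of Psmc3ip, so its counts may hold reads of Mlx.

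Other genes of the pathway were read from 5 lists. Of 14 tested genes of assembly and accessory factors, 4 (28.6%) were lower, against 17.2% of all genes, with a list median of -0.04. They were Ipo9 (log2 fold change -0.65 ± 0.11 SE, adjusted p = 0.000451), an importin that carries proteasomes into the nucleus, the deubiquitinase Usp14 (log2 fold change -0.41 ± 0.08 SE, adjusted p = 0.00135), the thioredoxin-like 19S partner Txnl1 (log2 fold change -0.40 ± 0.11 SE, adjusted p = 0.0113) and the ubiquitin receptor Adrm1 (-0.28). Pomp, which matures the beta ring, had 113, 118, 95.8, 204 and 195 CPM in fibrosis 1 to 5, against 119, 121, 101, 123 and 108 CPM in control 1 to 5. Its difference of 0.34 ± 0.19 (SE; adjusted p = 0.185) did not pass, and fibrosis 4 and 5 were the highest libraries, as for the core genes.

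Of 13 tested genes of transcription control, 3 (23.1%) were higher, against 18.6% of all genes, and 5 (38.5%) were lower, against 17.2% of all genes, with a list median of -0.10. Nfe2l1, the transcription factor that raises proteasome genes when proteolysis is blocked, had a log2 fold change of 0.17 ± 0.08 (SE; adjusted p = 0.119) and was not called. Ngly1, the deglycosylase that activates Nfe2l1, was higher (log2 fold change 0.55 ± 0.11 SE, adjusted p = 0.00147), while Mafg, a DNA-binding partner of the NFE2 family, was lower (log2 fold change -0.51 ± 0.08 SE, adjusted p = 0.000332) and so was Ddi2 (-0.28), the protease that cleaves Nfe2l1. Stat3 was higher (log2 fold change 0.42 ± 0.09 SE, adjusted p = 0.00266).

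Of 17 tested genes of ubiquitin supply and delivery, 3 (17.6%) were higher, close to the 18.6% of all genes, and 5 (29.4%) were lower, against 17.2% of all genes. The list median was -0.12. The unfolding ATPase Vcp (log2 fold change -0.26 ± 0.08 SE, adjusted p = 0.0174) and its cofactor Nploc4 (log2 fold change -0.46 ± 0.10 SE, adjusted p = 0.00367) were lower, and the ubiquitin gene Ubb was higher.

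Of 12 genes that supply peptides to MHC class I, 4 (33.3%) were higher, against 18.6% of all genes, and 8 were not called; the list median was 0.25. B2m, the light chain of class I, had 1365, 1741, 1254, 1543 and 1745 CPM in fibrosis 1 to 5, against 1172, 949, 1047, 1189 and 988 CPM in control 1 to 5. Every fibrosis library was above every control (log2 fold change 0.52 ± 0.12 SE, adjusted p = 0.00361). The heavy chain gene H2-K1 (log2 fold change 0.48 ± 0.12 SE, adjusted p = 0.00643) and the peptide editor gene Tapbpl (log2 fold change 0.41 ± 0.12 SE, adjusted p = 0.0131) were higher as well. Tap1, between Psmb9 and Psmb8, was not called, at 0.24 ± 0.12 (SE; adjusted p = 0.131), with 522, 591, 412, 379 and 443 CPM in fibrosis 1 to 5, against 406, 355, 419, 419.8 and 382 CPM in control 1 to 5. Fibrosis 4 was the second lowest of the 10 Tap1 libraries, whereas Psmb8 and Psmb9 in fibrosis 4 were above all controls.

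Of 10 genes of interferon gamma signalling, 4 (40%) were higher, against 18.6% of all genes, and 1 (10%) was lower, against 17.2% of all genes; the list median was 0.29. The kinases Jak2 (log2 fold change 0.64 ± 0.10 SE, adjusted p = 0.000374) and Jak1 (log2 fold change 0.38 ± 0.11 SE, adjusted p = 0.0151), the receptor chain Ifngr2 (0.30) and the transcription factor Irf8 (log2 fold change 0.55 ± 0.09 SE, adjusted p = 0.000681) were higher, and the inhibitor Socs1 was lower (-0.51). Irf1 (log2 fold change 0.26 ± 0.12 SE, adjusted p = 0.126), which acts on the immunoproteasome promoters, was not called. Its level was 184, 229, 139, 179 and 207 CPM in fibrosis 1 to 5, against 134 to 173.5 CPM in the controls. Fibrosis 3 lay inside the control range, and the other fibrosis libraries were above it. Dendritic cells express the immunoproteasome. Of 8 dendritic cell markers 5 (62.5%) were higher in fibrosis, against 18.6% of all genes. The other 3 were not called, with Zbtb46 on the other side of 0 (-0.19). B cell and NK cell markers were also called higher, 4 of 8 (50%) each. The part of any of these cells in the levels of Psmb8 and Psmb9 was not tested.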

How the data were processed

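The 10 libraries of mouse splenic B cells were assigned to fibrosis or control by their disease-state label. Per the labels' protocols, mRNA was captured on poly-T beads and reverse transcribed from random hexamers. GRCm38 (mm10) is the build in the submitters' processing notes; the aligner, the counter, the use of strand and the isolation of the B cells are not given in the sources that were used. The authors deposited 1 table of raw read counts and 1 of FPKM, in which each value is the count over gene length and library total, scaled by 1 factor a library (0.935 to 1.07).

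Counts of all genes were fitted with edgeR 4.0.16 in R 4.3.3 (filterByExpr, TMM, robust quasi-likelihood test, Benjamini-Hochberg adjustment over 14283 genes tested), with calls made under an adjusted p of 0.05. SE is the absolute log2 fold change over the square root of F. The biological coefficient of variation was 0.183, and the libraries held 13439100 to 17954551 counts. Ratios used log2 of counts plus 0.5 and an exact permutation test (scipy 1.17.1). Levels per length used the deposited FPKM and, added after the data were seen, the length of the APPRIS principal transcript in the GENCODE annotation. Alternatives were other scalings, filters and thresholds, DESeq2 1.42.0, limma 3.58.1 (voom, or log2 FPKM plus 1 or 0.1), protein-coding genes alone, a block for the replicate number, and fits without single libraries.

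The members and lists were chosen with earlier results of these data known. Values per library are given for the catalytic beta genes, the activators, the 2 genes of each class with the smallest p and the 3 largest fold changes; Psmc3 to Psmc6, Psmd1 to Psmd3 and other members are named to account for each member. Of each pathway list, the 3 genes with the smallest p and Nfe2l1, Pomp, Tap1 and Irf1 are named; some genes that this rule takes are not reported here. Adrm1, Ddi2, Ubb, Ifngr2 and Socs1 were named after their values were seen. The symbols Shfm1, Paaf1, AI314180 and Ufd1l did not match a gene of the table.

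Deviations from the group mean correlated at -0.29 to 0.47 between same-numbered libraries. So wide a range over so few pairs cannot decide whether the numbers pair the libraries. The main fit did not pair them.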

Additional observations from a re-analysis of the deposited data

Results flagged for a closer look

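In 4 of 98 groups of 5 libraries, 1 library lay far from the others by Dixon's test, where chance gives about 1 in 20. The Psma8 level in fibrosis 4 was 1.19 CPM, against at most 0.390 CPM in the other fibrosis libraries. Psmd5 in fibrosis 4 was 70.4 CPM, against at most 58.2 CPM in the other fibrosis libraries. Psmc4 in control 3 was 126 CPM, against at least 139.6 CPM in the other controls, and Psmd12 in control 4 was 57.9 CPM, against at least 62.1 CPM in the other controls.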

How the results depend on the processing

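The number of members called higher was 4, and 2 with scaling by library size only, at an adjusted p under 0.01, or without fibrosis 4 and 5; leaving out 1 library at a time gave 2 (without control 5) to 7 (without fibrosis 3). The number called lower was 19, and 11 at an adjusted p under 0.01; every other alternative gave 14 to 26. Scaling by library size only shifted the median of all genes by -0.11 (log2) and gave 2 higher and 25 lower. Psma4 log2 fold change was 0.08 and turned to -0.19 (adjusted p = 0.0463 by edgeR) without fibrosis 4 and 5; the cause was not tested. With the threshold kept at 0.05, 7 of 49 members lost their call under some alternative (Psmc3, Psmd5, Psmd11, Psmd12, Psme1, Psme2b and Psmg1). The most frequent were Psme2b (11 of 22 alternatives) and Psmd5 (9 of 22), and 12 members besides Psma4 gained a call. At 0.01 other members also lost theirs, among them Psmc5, Psmg2 and Psmg3 (adjusted p by edgeR of 0.0142, 0.0146 and 0.016).

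The replicate number as a block gave 3 members higher and 19 lower, and 2 of 5 fibrosis libraries correlated best with the control of their own number. With pairing by number, the ratio differences of 0.684 (Psmb8 to Psmb5), 0.608 (Psmb9 to Psmb6) and 0.685 (Psme1 to Psme3) had an exact sign-flip adjusted p of 0.0833, in a design whose smallest p is 0.0625, so that test could not pass the threshold. Under the other alternatives run on the ratios, these 3 differences passed the exact permutation test at an adjusted p under 0.05. Their adjusted p of 0.0106 in the main test is above 0.01. Leaving out 1 library at a time gave differences of 0.646 to 0.782, 0.536 to 0.656 and 0.601 to 0.776. Genes under 1 CPM, such as Psma8, are limited by counting.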
